A study of Mus musculus with 18 samples.

Results

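Solute carriers are membrane proteins that move small molecules across the plasma membrane and the membranes of organelles, and their genes carry the symbol Slc followed by a family number. The genes described here were chosen by symbol and by measured level: each had a probe set of a single Slc symbol, the brightest probe set stood for the gene, and its mean over the 18 arrays was at least 6 on the log2 intensity scale. Probe sets in an evenly spaced run of values on baseline replicate 1 were left out, as were 9 genes by name (Slc40a1, Slc11a1, Slc2a1, Slc16a3, Slc7a11, Slc3a2, Slc7a5, Slc30a1 and Slc39a14), of which 6 reached that level. This left 118 genes of 327 with a usable Slc probe set, and 203 were below the level. Just inside it were Slc22a4 at 6.10, Slc2a9 at 6.13 and Slc25a38 at 6.17, and just outside it were Slc35d1 at 5.97, Slc41a3 at 5.96 and Slc25a32 at 5.94. All 118 passed the filter on dim genes and were among the 13190 genes tested. Slc9a3r1 entered by its symbol although it encodes a scaffold protein and not a carrier.

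The cells were bone marrow derived macrophages of male C57BL/6 mice aged 10 weeks, grown for 1 week from the marrow of 3 animals in fetal calf serum and recombinant human CSF1 (the macrophage growth factor) and replated in both. They were harvested untreated (baseline) or after 1, 2, 4, 10 or 24 h with 100 nM dexamethasone, a synthetic glucocorticoid. Each of the 6 groups had 3 arrays. The baseline is a single time point, so time in culture and time with the drug cannot be told apart, and the serum was shared by all groups. The series calls the replicates biological, and p-values here measure the spread between these arrays.

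Carriers are grouped here by what they move. Macrophages take up amino acids, nucleosides, sugars and metals through plasma membrane carriers, and lysosomal carriers return the building blocks of digested material to the cytosol. Most members of the Slc25 family sit in the inner mitochondrial membrane and exchange metabolites with the matrix, although Slc25a17 is peroxisomal. Glucocorticoids act through a nuclear receptor that binds DNA at a pair of short arms facing each other across a small gap.

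Promoters are shown for 4 genes whose levels are described further on: the nucleoside carrier Slc28a2, the neighbouring copper carriers Slc31a2 and Slc31a1, and the lysosomal amino acid carrier Slc36a1. They are the 250 bases before the RefSeq start on GRCm38.p6, all on the plus strand, at chr2:122426185-122426434, chr4:62286179-62286428, chr4:62360451-62360700 and chr11:55204090-55204339. Capitals mark motif matches on either strand, which are a match of the antioxidant response element core in Slc31a2 and, in Slc36a1, AGAACA followed by the E-box CACGTG. No searched motif was found in the windows of Slc28a2 and Slc31a1.
Slc28a2: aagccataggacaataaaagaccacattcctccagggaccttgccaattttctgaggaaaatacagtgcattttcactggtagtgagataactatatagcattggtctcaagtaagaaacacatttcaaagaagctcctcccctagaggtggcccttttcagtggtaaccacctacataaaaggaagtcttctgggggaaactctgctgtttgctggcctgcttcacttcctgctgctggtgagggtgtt
Slc31a2: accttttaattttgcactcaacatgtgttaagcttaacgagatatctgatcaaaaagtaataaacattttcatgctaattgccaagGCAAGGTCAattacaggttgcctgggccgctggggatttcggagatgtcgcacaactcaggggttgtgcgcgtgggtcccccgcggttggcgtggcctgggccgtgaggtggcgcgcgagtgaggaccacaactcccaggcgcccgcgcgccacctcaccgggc
Slc31a1: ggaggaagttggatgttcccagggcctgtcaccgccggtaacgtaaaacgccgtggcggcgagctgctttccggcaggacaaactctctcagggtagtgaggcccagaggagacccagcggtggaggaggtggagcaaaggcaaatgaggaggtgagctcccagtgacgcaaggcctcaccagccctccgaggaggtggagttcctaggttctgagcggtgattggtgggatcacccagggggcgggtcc
Slc36a1: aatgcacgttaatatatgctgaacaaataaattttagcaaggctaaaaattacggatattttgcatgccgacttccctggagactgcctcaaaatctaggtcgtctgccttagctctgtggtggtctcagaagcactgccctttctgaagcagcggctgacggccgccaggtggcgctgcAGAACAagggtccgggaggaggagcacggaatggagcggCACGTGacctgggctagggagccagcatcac

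The motif search covered both strands of the 250 bases before each start, for 93 of the 118 genes that had a promoter in the RefSeq table and for 27025 genes in all. The full receptor element was searched as the arm GNACA, a gap of NNN and the arm TGTNC. None of the 93 windows held it, against 0.44% of all genes and 0.186% of the genes with a mean of at least 6. At shares this low, 93 windows are too few to tell the carriers from other genes. The single arm AGAACA was in 11.8% of the 93, in 18.2% of all genes and in 12.4% of those with a mean of at least 6. The E-box CACGTG was in 20.4% of the carriers, 6.86% of all genes and 11.1% of the brighter genes. The antioxidant core TGACNNNGC was in 22.6%, 11.5% and 13.9% of the same sets. The amino acid response core TGATGNAA was in 4.3%, 3.91% and 2.47%. These are counts of letters in a short window and say nothing of binding.

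Over the tested genes, replicate arrays had correlations of 0.995 to 0.997 within a group. Fkbp5 and Tsc22d3, genes well known to respond to glucocorticoids, were higher than baseline by 3.54 ± 0.07 and 2.24 ± 0.06 (log2 change ± SE) at 24 h. All 8 macrophage markers were at 8.68 or above. At 24 h the log2 change was 2.10 for Mertk, 0.55 for Itgam and -0.31 for Fcgr1 (limma adjusted p = 8.01e-15, 4.2e-05 and 0.0299). The other macrophage markers were not called then. No marker of B cells, T cells, erythroid cells, fibroblasts, mast cells or dendritic cells reached 6. Of 4 osteoclast markers 1 did, Ctsk at 8.69, with no call at 10 or 24 h. Of 7 neutrophil markers on the array 3 reached 6, and 3 fell at 10 h and 3 at 24 h. The log2 change at 24 h was -1.13 for Ngp, -0.90 for Ltf and -1.18 for S100a9. The brightest of the 7, S100a8 (mean 8.62), was not called, at -0.18 at 10 h and -0.09 at 24 h. The summed level of the 7 was 9.45 to 10.18 at baseline and 9.16 to 9.45 at 24 h, while Elane (mean 3.45) and Mpo (mean 4.00) were dim. The 3' minus 5' log2 signal of the Gapdh control probe sets was 0.06 ± 0.03 (SD, n = 3) at baseline and averaged 0.15 to 0.20 in the treated groups. The part of these differences in the changes below was not tested. In such bulk samples, fewer cells of a type and less RNA per cell cannot be told apart.

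The number of carriers called grew at each later time, from 0 at 1 h to 42 at 24 h. All changes are against the same 3 baseline arrays unless stated, and a gene is called where its limma adjusted p (Benjamini-Hochberg, over all 13190 genes) was below 0.05. At 1 h no carrier was called, although 7 had an unadjusted p below 0.05, and the share called among all tested genes was 0.387% (0.7% among the 7144 genes with a mean of at least 6). At 2 h, 3 rose and 1 fell. That is 3.39% of the carriers, against 2.15% of all tested genes (1.57% higher, 0.576% lower) and 3.46% of those with a mean of at least 6. In this fit the carriers' share at 2 h was thus near that of the brighter genes. With the replicate number as a block, 10 carriers were called at 2 h (6 rose and 4 fell). The share of the brighter genes was not counted with the block. At 4 h, 15 rose and 9 fell, or 20.3%, against 7.52% of all tested genes (4.5% higher, 3.03% lower) and 12.1% of the brighter genes. At 10 h, 22 rose and 15 fell, or 31.4%, against 14.4% of all tested genes (8.29% higher, 6.16% lower) and 22.1% of the brighter genes. At 24 h, 28 rose and 14 fell, or 35.6%, against 12.7% of all tested genes (7.38% higher, 5.34% lower) and 19.1% of the brighter genes. The count of 24 at 4 h became 13 with 4 h replicate 2 left out and 15 with 4 h replicate 1, baseline replicate 2 or baseline replicate 3 left out, and the 4 calls at 2 h became 2 without 2 h replicate 3.

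**Figure D1:**
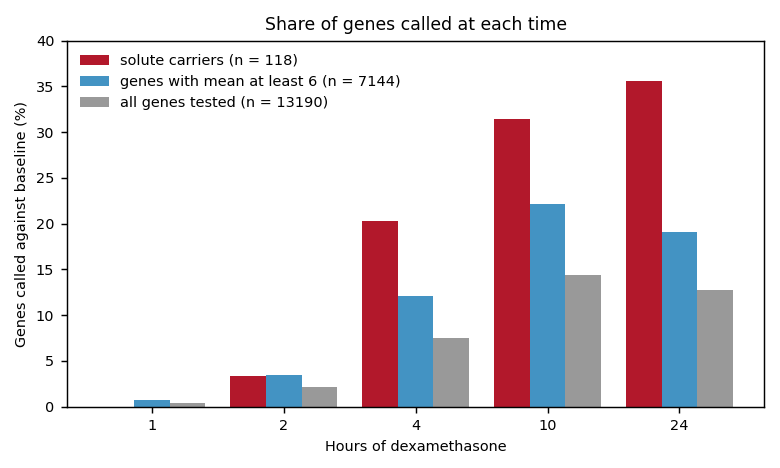
Percentage of genes called against baseline (limma adjusted p below 0.05; vertical axis) at each time with dexamethasone (horizontal axis, hours, evenly spaced) for the 118 carriers, the 7144 tested genes with a mean log2 intensity of at least 6 and all 13190 tested genes. The carriers stand at 20.3%, 31.4% and 35.6% at 4, 10 and 24 h, above the brighter genes at 12.1%, 22.1% and 19.1%.

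Over the course, 58 of the 118 carriers were called at 1 or more times, against 20.5% of all tested genes and 30.6% of the brighter ones, and 60 were called at none. An F test over the 5 times called 44, against 17.4% of all tested genes and 27.2% of the brighter ones. Of the 58, 37 rose and 22 fell, with Slc20a1 in both groups. Calls began at 2 h for 4 genes, at 4 h for 20, at 10 h for 20 and at 24 h for 14. Most changes were small: the median size of the log2 change over all 118 was 0.109 at 4 h, 0.173 at 10 h and 0.176 at 24 h, against 0.0891, 0.117 and 0.111 for the brighter genes. Slc28a2, Slc15a3 and Slc24a3 alone reached a log2 change of 1 in either direction. The median signed change of the carriers at 24 h was 0.01, as it was over all tested genes.

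**Figure D2:**
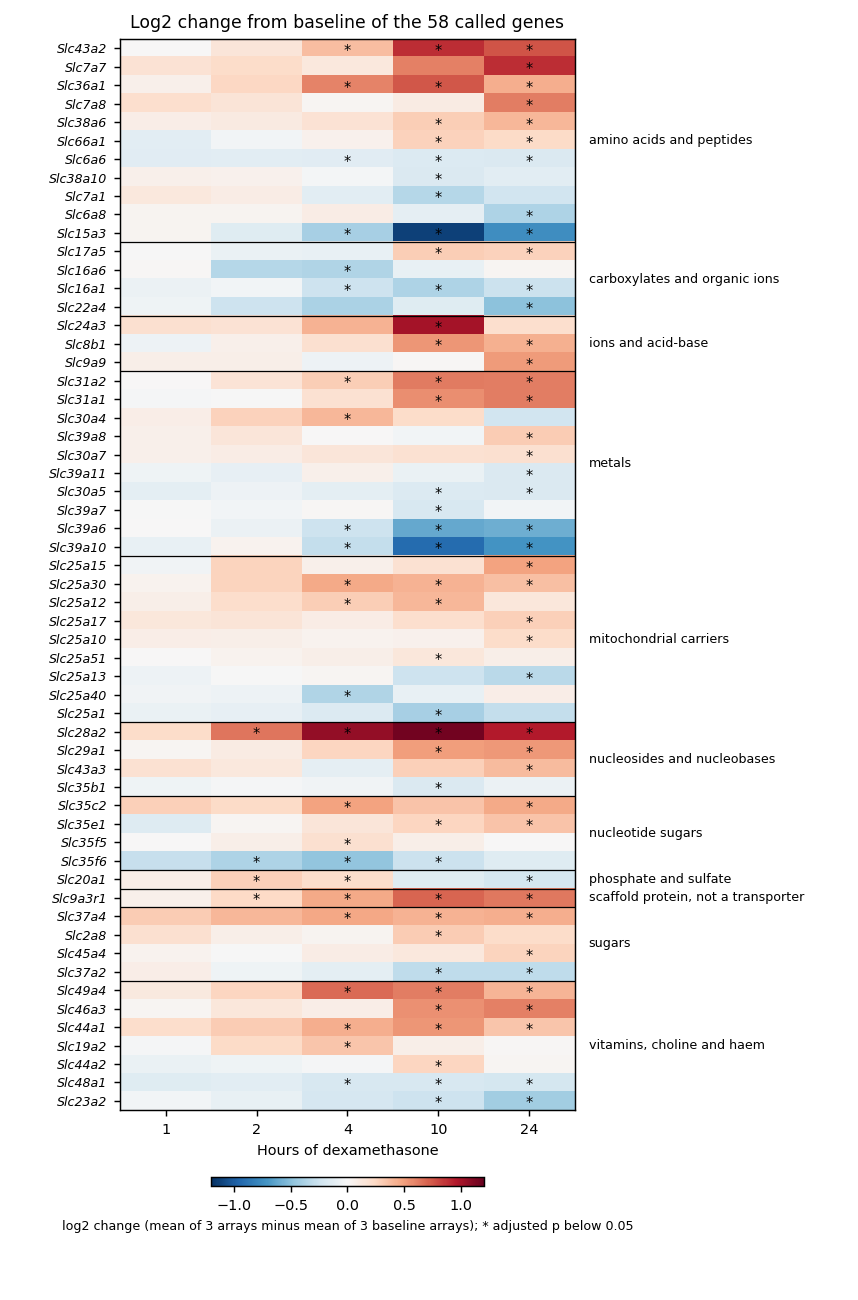
Log2 change from baseline (colour scale; red higher, blue lower; mean of 3 arrays minus mean of 3 baseline arrays) of the 58 called carriers (rows, grouped by substrate) at 1, 2, 4, 10 and 24 h (columns). Stars mark a limma adjusted p below 0.05; Slc28a2 rises from 2 h, and Slc15a3 and Slc39a10 are lowest at 10 h.

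The class of nucleosides and nucleobases held 5 carriers, with the ATP carrier Slc35b1 counted among them. Of these, 4 were called at some time, against 30.6% of the brighter genes, and they included the largest rise among the 118. Slc28a2, a sodium-coupled nucleoside importer of the plasma membrane, read 7.81, 7.62 and 7.64 at baseline and 7.91, 8.05 and 7.77 at 1 h. It read 8.31, 8.52 and 8.16 at 2 h, 8.75, 8.83 and 8.65 at 4 h, 8.66, 8.98 and 8.89 at 10 h, and 8.59, 8.64 and 8.69 at 24 h. From 2 h on, no treated array overlapped the baseline arrays. Its log2 change was 0.64 ± 0.09 at 2 h, 1.05 ± 0.09 at 4 h, 1.16 ± 0.09 at 10 h and 0.95 ± 0.09 at 24 h, with limma adjusted p of 5.73e-05, 9.78e-09, 1.24e-09 and 3.98e-08. Its promoter is the first of those printed above.

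Slc29a1, which lets nucleosides pass in either direction along their gradient, read 6.68, 6.57 and 6.45 at baseline, 7.29, 6.77 and 7.14 at 10 h, and 7.16, 7.03 and 7.07 at 24 h. It rose by 0.50 ± 0.12 and 0.52 ± 0.12 at those times (limma adjusted p = 0.00453 and 0.0036), with no overlap. The purine nucleobase carrier Slc43a3 rose at 24 h by 0.38 ± 0.10 (limma adjusted p = 0.0111, and up to 0.0811 on leaving out 24 h replicate 1 or baseline replicate 2). Slc35b1, which carries ATP into the endoplasmic reticulum, fell at 10 h by 0.17 ± 0.04 (limma adjusted p = 0.00846). The lysosomal nucleoside carrier Slc29a3 was the fifth of the class and was not called, at -0.28, -0.46 and -0.38 at 4, 10 and 24 h with an SE of 0.19.

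Among 17 carriers of amino acids and peptides, 11 were called at some time, against 20.5% of all tested genes and 30.6% of the brighter ones. At 24 h, 6 rose and 3 fell, when 19.1% of the brighter genes were called. Those that rose included carriers of both the plasma membrane and the lysosome.

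Slc43a2, a facilitative carrier of branched-chain and other large neutral amino acids, read 10.28, 10.55 and 10.24 at baseline, 10.71, 10.85 and 10.63 at 4 h, 11.33, 11.23 and 11.18 at 10 h, and 11.07, 11.18 and 11.06 at 24 h. All treated arrays at these 3 times were above all baseline arrays. The log2 change was 0.37 ± 0.08, 0.89 ± 0.08 and 0.75 ± 0.08 (limma adjusted p = 0.00172, 3.76e-09 and 7.72e-08). Its more variable probe set gave 0.60 at 10 h with a limma adjusted p of 0.174.

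Slc36a1 moves small neutral amino acids with protons, chiefly out of lysosomes, and is tied to amino acid sensing by mTORC1. It read 7.75, 7.46 and 7.49 at baseline, 8.18, 8.18 and 8.11 at 4 h, 8.47, 8.31 and 8.16 at 10 h, and 8.01, 7.98 and 8.01 at 24 h. The rise was 0.59 ± 0.10, 0.75 ± 0.10 and 0.43 ± 0.10 (limma adjusted p = 0.000274, 7.72e-06 and 0.00484), again without overlap. Its window, printed above, holds AGAACA and CACGTG.

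Slc7a7 and Slc7a8 encode light chains of amino acid exchangers that work with the heavy chain Slc3a2. Slc7a8 read 7.06, 6.96 and 6.84 at baseline and 7.64, 7.61 and 7.44 at 24 h, a rise of 0.61 ± 0.13 (limma adjusted p = 0.00153), and was not called earlier. Slc7a7 read 6.45, 6.70 and 5.49 at baseline and 7.15, 7.20 and 6.95 at 24 h. Its rise was 0.89 ± 0.21 (limma adjusted p = 0.00563), and baseline replicate 3 was low. Without that array it was 0.53, with a limma adjusted p of 0.0553.

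Smaller rises came from Slc38a6, a member of a neutral amino acid family (0.29 ± 0.06 at 10 h and 0.40 ± 0.06 at 24 h, limma adjusted p = 0.00243 and 0.000101), and from Slc66a1, which exports cationic amino acids from lysosomes (0.28 ± 0.07 and 0.23 ± 0.07, limma adjusted p = 0.00437 and 0.0174). The 24 h call of Slc66a1 was lost without baseline replicate 1, baseline replicate 3 or 24 h replicate 2 (limma adjusted p up to 0.0688). Both calls of Slc38a6 were lost with the mean of its probe sets or the more variable one (limma adjusted p up to 0.817 at 10 h and 0.713 at 24 h).

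Slc15a3, a proton-coupled carrier of histidine and small peptides in endosomes and lysosomes, fell furthest of the 118. It read 9.91, 9.81 and 9.85 at baseline, 9.47, 9.57 and 9.34 at 4 h, 8.82, 8.82 and 8.56 at 10 h, and 9.14, 9.25 and 8.96 at 24 h. None of these treated arrays reached the baseline arrays. The log2 change was -0.40 ± 0.08, -1.12 ± 0.08 and -0.74 ± 0.08 (limma adjusted p = 0.00136, 1.1e-10 and 1.58e-07). The related lysosomal carrier Slc15a4 was not called at any time.

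The creatine carrier Slc6a8 read 10.22, 10.22 and 9.99 at baseline and 9.75, 9.89 and 9.66 at 24 h, a log2 change of -0.37 ± 0.09 (limma adjusted p = 0.00407). The taurine carrier Slc6a6 fell by 0.14, 0.17 and 0.18 at 4, 10 and 24 h, each with an SE of 0.04 (limma adjusted p = 0.0198, 0.00294 and 0.002). Its more variable probe set had the opposite sign at 4 and 24 h, at 0.09 both times. Without 4 h replicate 1 or baseline replicate 2 the 4 h call was lost (limma adjusted p up to 0.151). The arginine carrier Slc7a1 (-0.34 ± 0.12, limma adjusted p = 0.0488) and Slc38a10 (-0.18 ± 0.06, limma adjusted p = 0.0418) were called at 10 h alone. In both the arrays overlapped baseline, and the calls were lost on leaving out any of 12 and 6 arrays in turn (limma adjusted p up to 0.25 and 0.233). The uncalled members were Slc15a4, Slc38a1, Slc38a2, Slc38a9, Slc66a2 and Slc7a6, with changes between -0.22 and 0.32.

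**Figure D3:**
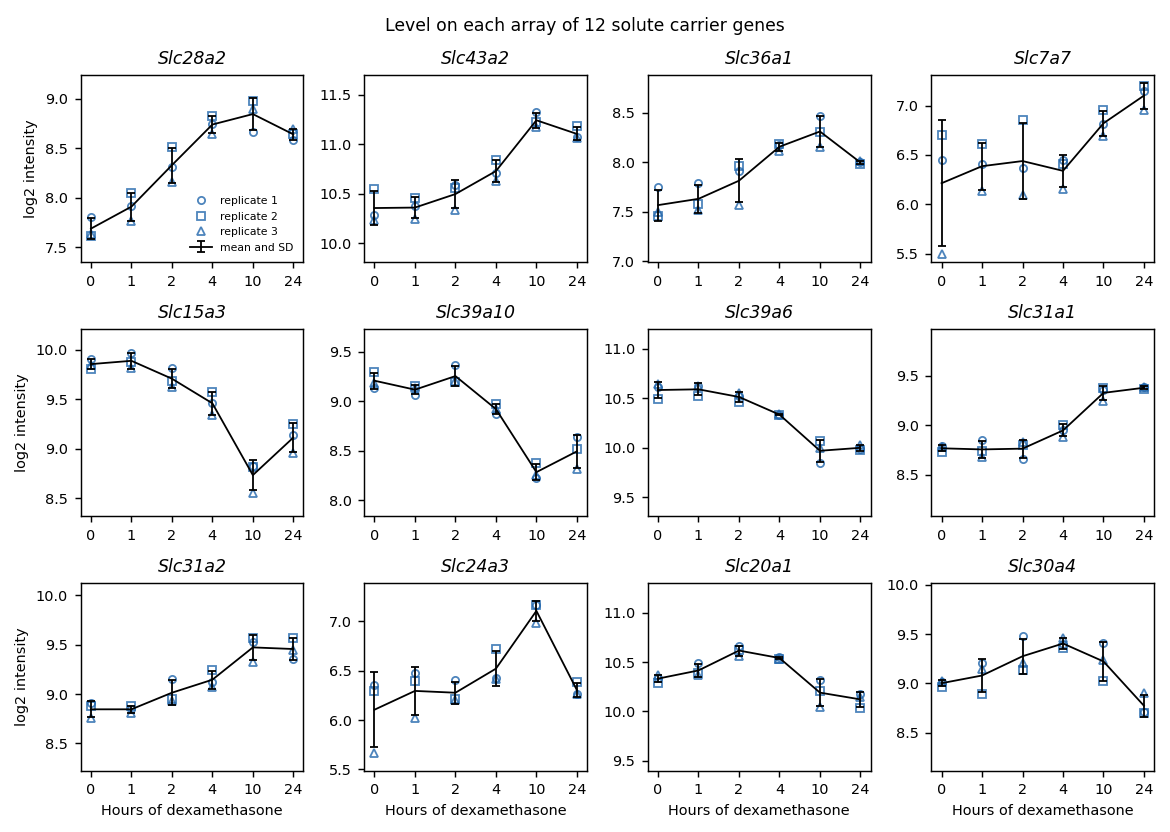
Log2 intensity (vertical axis) on each of the 3 arrays of each group (points) with the mean and SD (line and bars) against hours with dexamethasone (horizontal axis, evenly spaced, 0 is baseline) for 12 carriers. Slc28a2 climbs from 7.81, 7.62 and 7.64 to 8.75, 8.83 and 8.65 at 4 h, Slc15a3 is lowest at 10 h, and Slc7a7 has 1 low baseline array at 5.49.

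Among 15 carriers of metals, 10 were called at some time, against 30.6% of the brighter genes. At 24 h, 4 rose and 4 fell, against 7.38% and 5.34% of all tested genes. Both members of the copper family rose. Slc31a1, the high-affinity copper importer of the cell surface, read 8.79, 8.73 and 8.78 at baseline, 8.96, 9.003 and 8.88 at 4 h, 9.36, 9.37 and 9.25 at 10 h, and 9.39, 9.37 and 9.38 at 24 h. Its log2 change was 0.56 ± 0.06 at 10 h and 0.61 ± 0.06 at 24 h (limma adjusted p = 2.15e-07 and 5.08e-08).

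Slc31a2, a related protein found mainly on endosomes and lysosomes that affects how much copper leaves them, read 8.91, 8.87 and 8.75 at baseline, 9.12, 9.24 and 9.07 at 4 h, 9.52, 9.56 and 9.33 at 10 h, and 9.35, 9.57 and 9.45 at 24 h. It rose by 0.30 ± 0.07, 0.63 ± 0.07 and 0.61 ± 0.07 (limma adjusted p = 0.0106, 8.91e-07 and 1.35e-06), with the 4 h call lost without 4 h replicate 2 or baseline replicate 3 (limma adjusted p up to 0.0835). At 10 and 24 h neither gene overlapped its baseline arrays. Both genes lie on chromosome 4, separated in RefSeq order by the single coding gene Fkbp15. In the windows printed above, that of Slc31a2 holds the antioxidant core and that of Slc31a1 holds none of the motifs searched. The copper pump Atp7a, a P-type ATPase and no solute carrier, was also higher, by 0.35, 0.57 and 0.46 at 4, 10 and 24 h (SE 0.07; limma adjusted p = 0.00133, 1.44e-06 and 3.39e-05).

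The zinc importers Slc39a10 and Slc39a6 of the plasma membrane fell. Slc39a10 read 9.14, 9.30 and 9.19 at baseline, 8.87, 8.97 and 8.93 at 4 h, 8.22, 8.38 and 8.25 at 10 h, and 8.64, 8.52 and 8.32 at 24 h, with no overlap at any of the 3 times. The log2 change was -0.29 ± 0.07, -0.93 ± 0.07 and -0.71 ± 0.07 (limma adjusted p = 0.015, 1.2e-09 and 1.09e-07). The 4 h call was lost without 4 h replicate 1 or baseline replicate 2 (limma adjusted p up to 0.0935), and the more variable probe set gave -0.49 at 24 h with a limma adjusted p of 0.0768.

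Slc39a6, a close relative that can pair with Slc39a10, read 10.62, 10.49 and 10.65 at baseline, 10.33, 10.33 and 10.34 at 4 h, 9.85, 10.06 and 10.00 at 10 h, and 9.99, 9.98 and 10.03 at 24 h. The log2 change was -0.25 ± 0.05, -0.61 ± 0.05 and -0.58 ± 0.05 (limma adjusted p = 0.00308, 5.03e-09 and 1.43e-08), again with no overlap. Slc39a8, which imports zinc and manganese, was not called until 24 h, when it was higher by 0.30 ± 0.08 (limma adjusted p = 0.0113), a call lost without baseline replicate 3 or 24 h replicate 3 (limma adjusted p up to 0.0828).

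Carriers of zinc into organelles changed in both directions. Slc30a4, which loads zinc into endosomes and lysosomes, read 9.02, 8.97 and 9.02 at baseline, 9.40, 9.35 and 9.46 at 4 h, 9.41, 9.02 and 9.24 at 10 h, and 8.72, 8.70 and 8.90 at 24 h. It was called at 4 h alone (0.40 ± 0.09, limma adjusted p = 0.00557). Slc30a5, a zinc carrier of the secretory pathway, fell by 0.16 ± 0.05 at 10 h and 0.18 ± 0.05 at 24 h (limma adjusted p = 0.0178 and 0.0112). These calls were lost without baseline replicate 2, baseline replicate 3 or 10 h replicate 3 at 10 h and without 24 h replicate 2 at 24 h (limma adjusted p up to 0.0666 and 0.0551). Slc30a7, another carrier of the secretory pathway, was higher at 24 h (0.20 ± 0.06, limma adjusted p = 0.0466), and Slc39a11 was lower at 24 h (-0.17 ± 0.06, limma adjusted p = 0.0383). Slc39a7, which releases zinc from the endoplasmic reticulum, was lower at 10 h (-0.19 ± 0.06, limma adjusted p = 0.0294). Leaving out any of 11, 5 and 3 arrays in turn ended the calls of Slc30a7, Slc39a11 and Slc39a7 (limma adjusted p up to 0.186, 0.159 and 0.134; for Slc39a7, baseline replicate 1, baseline replicate 3 or 10 h replicate 3). Slc30a6, Slc30a9, Slc39a1, Slc39a9 and Slc41a2 were not called, with changes from -0.16 to 0.20.

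**Figure D4:**
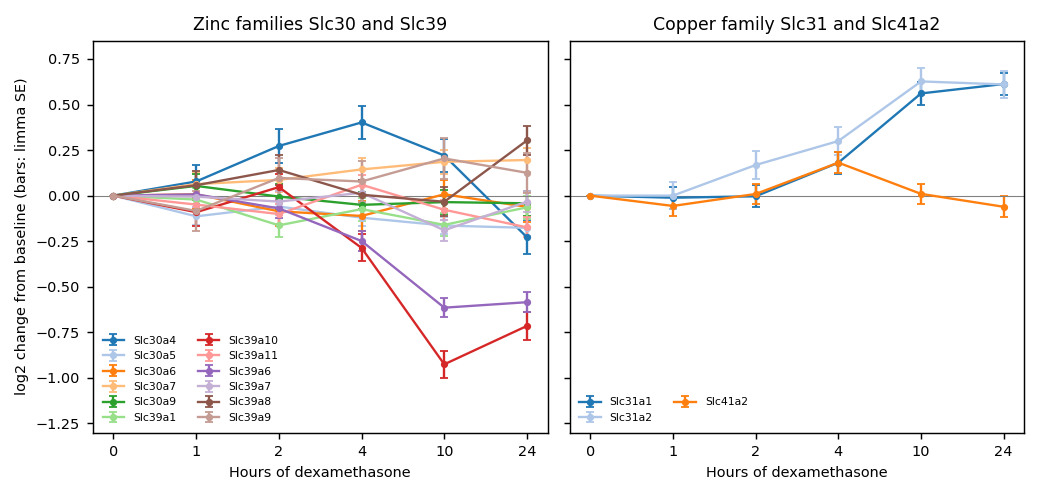
Log2 change from baseline (vertical axis; bars are limma SEs) against hours with dexamethasone (horizontal axis, evenly spaced) for the zinc families Slc30 and Slc39 on the left and for the copper carriers Slc31a1 and Slc31a2 and the magnesium carrier Slc41a2 on the right. Slc39a10 and Slc39a6 fall to -0.93 and -0.61 at 10 h, and both copper carriers stand at 0.61 at 24 h.

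Carriers of vitamins, choline and haem were called at some time in 7 of 8 cases, against 30.6% of the brighter genes. Slc49a4, a lysosomal membrane carrier, read 7.02, 6.86 and 6.91 at baseline, 7.68, 7.44 and 7.71 at 4 h, 7.47, 7.53 and 7.63 at 10 h, and 7.37, 7.41 and 7.23 at 24 h. It rose by 0.68 ± 0.09, 0.61 ± 0.09 and 0.41 ± 0.09 (limma adjusted p = 1.13e-05, 3.04e-05 and 0.00328), with no overlap. Slc46a3, a lysosomal relative of the folate importer, read 7.41, 7.34 and 7.22 at baseline, 7.74, 7.89 and 7.997 at 10 h, and 7.82, 7.93 and 8.03 at 24 h. Its rise of 0.55 ± 0.10 and 0.60 ± 0.10 (limma adjusted p = 0.000292 and 0.00011) also left no overlap.

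The choline carrier Slc44a1 rose by 0.44 ± 0.11, 0.53 ± 0.11 and 0.34 ± 0.11 at 4, 10 and 24 h (limma adjusted p = 0.00878, 0.000856 and 0.0362). The first of these calls was lost without baseline replicate 2, baseline replicate 3 or 4 h replicate 2 (limma adjusted p up to 0.0715) and the last without any of 5 arrays (up to 0.19). Slc44a2 of the same family rose at 10 h alone (0.26 ± 0.07, limma adjusted p = 0.0111), a call lost without baseline replicate 1 or 10 h replicate 1 (up to 0.0875). The thiamine importer Slc19a2 rose at 4 h alone (0.33 ± 0.08, limma adjusted p = 0.012), with the call lost without any of 4 arrays (up to 0.0693). Its more variable probe set was at -0.05 and was dim (mean 4.09). The folate importer Slc19a1 was not called.

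The sodium-coupled vitamin C importer Slc23a2 fell, by 0.24 ± 0.06 at 10 h and 0.42 ± 0.06 at 24 h (limma adjusted p = 0.00953 and 3.89e-05). Its arrays read 8.93, 8.97 and 8.997 at baseline and 8.61, 8.48 and 8.55 at 24 h, and a dimmer probe set was at 0.08 at 24 h. Without 10 h replicate 2 or 10 h replicate 3 the 10 h call was lost (limma adjusted p up to 0.0528). The haem carrier Slc48a1, which recovers haem from digested red cells, fell by 0.20, 0.19 and 0.21 at 4, 10 and 24 h, each with an SE of 0.06 (limma adjusted p = 0.046, 0.0328 and 0.021). These calls were lost without any of 12 arrays at 4 h and any of 4 at 10 h, and at 24 h without baseline replicate 2 or 24 h replicate 3 (limma adjusted p up to 0.163, 0.174 and 0.174).

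The mitochondrial class was the largest, with 27 genes, and was taken as the Slc25 family, so that it includes the peroxisomal Slc25a17. Of the 27, 9 were called at some time, a share near the 30.6% of the brighter genes. The carriers of oxidative phosphorylation were not called: the ADP and ATP exchangers Slc25a5 and Slc25a4 were at -0.0014 and -0.09 at 24 h and the phosphate carrier Slc25a3 at -0.02, with SEs of 0.04, 0.06 and 0.03. The glutathione carrier Slc25a39 and the ATP-magnesium carrier Slc25a24 were at -0.08 ± 0.05 and 0.02 ± 0.06. Slc25a30, an inner membrane carrier related to the uncoupling proteins, read 8.99, 9.05 and 9.16 at baseline, 9.53, 9.49 and 9.55 at 4 h, 9.56, 9.40 and 9.51 at 10 h, and 9.42, 9.34 and 9.51 at 24 h. It rose by 0.46 ± 0.08, 0.42 ± 0.08 and 0.36 ± 0.08 (limma adjusted p = 0.000207, 0.000353 and 0.00206), with no overlap.

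The aspartate and glutamate exchangers Slc25a12 and Slc25a13 did not move together. Slc25a12 rose by 0.30 ± 0.06 at 4 h and 0.40 ± 0.06 at 10 h (limma adjusted p = 0.00179 and 3.24e-05). These calls were not made with its more variable probe set, which was dim (mean 3.96). Slc25a13 fell by 0.32 ± 0.09 at 24 h (limma adjusted p = 0.014), a call lost without baseline replicate 1, baseline replicate 2 or 24 h replicate 3 (up to 0.113). The difference between the genes was not tested.

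At 24 h the ornithine carrier Slc25a15 rose by 0.48 ± 0.10 (limma adjusted p = 0.00135), with a dimmer probe set at -0.0011. The peroxisomal carrier Slc25a17 (0.29 ± 0.08, limma adjusted p = 0.0133) and the dicarboxylate carrier Slc25a10 (0.22 ± 0.07, limma adjusted p = 0.0363) were also called higher then. Without baseline replicate 2, baseline replicate 3 or 24 h replicate 2 the call of Slc25a17 was lost (up to 0.0555), as was that of Slc25a10 without any of 5 arrays (up to 0.136). The citrate carrier Slc25a1 was lower at 10 h (-0.39 ± 0.12, limma adjusted p = 0.0273), a call lost without baseline replicate 1, baseline replicate 3 or 10 h replicate 2 (up to 0.165). Slc25a40, a glutathione carrier, was lower at 4 h (-0.36 ± 0.11, limma adjusted p = 0.0363), and the NAD carrier Slc25a51 was higher at 10 h (0.14 ± 0.04, limma adjusted p = 0.0439). Any of 5 and 12 arrays left out ended the calls of Slc25a40 and Slc25a51 (up to 0.171 and 0.149), and the more variable probe set of Slc25a51 was at -0.01. Over the 18 mitochondrial carriers never called, changes ran from -0.21 to 0.28.

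Carriers of ions were called at some time in 3 of 7 cases (30.6% of the brighter genes), and 1 change was transient. Slc24a3, a plasma membrane exchanger of sodium for calcium and potassium, read 6.36, 6.29 and 5.67 at baseline, 6.42, 6.72 and 6.41 at 4 h, 7.17, 7.16 and 6.98 at 10 h, and 6.26, 6.39 and 6.26 at 24 h. The 10 h arrays were above every other array of the course, and at 24 h the values overlapped baseline. Its log2 change at 10 h was 1.00 ± 0.15 (limma adjusted p = 3.41e-05), and 0.78 without the low baseline replicate 3. Between 10 and 24 h it fell by 0.80 ± 0.15 (limma adjusted p = 0.00374).

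The mitochondrial sodium and calcium exchanger Slc8b1 read 7.55, 7.53 and 7.51 at baseline, 8.11, 7.95 and 8.12 at 10 h, and 7.95, 7.96 and 7.95 at 24 h. Its rise of 0.53 ± 0.08 and 0.42 ± 0.08 (limma adjusted p = 4.72e-05 and 0.000707) left no overlap. The endosomal sodium and proton exchanger Slc9a9 read 8.33, 8.69 and 8.40 at baseline, 8.39, 8.48 and 8.60 at 10 h, and 9.02, 8.93 and 8.98 at 24 h, when it was higher by 0.51 ± 0.10 (limma adjusted p = 0.00063). Slc12a2, Slc12a4, Slc12a7 and Slc4a2, which move chloride, potassium and bicarbonate, were not called, with changes from -0.25 to 0.23.

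The scaffold Slc9a3r1, which tethers exchangers and receptors under the plasma membrane, rose at every time from 2 h. It read 10.69, 10.86 and 10.83 at baseline, 11.09, 10.94 and 11.08 at 2 h, 11.15, 11.29 and 11.30 at 4 h, 11.54, 11.46 and 11.48 at 10 h, and 11.48, 11.39 and 11.41 at 24 h. The rise was 0.24 ± 0.05, 0.45 ± 0.05, 0.70 ± 0.05 and 0.64 ± 0.05 (limma adjusted p = 0.00784, 9.53e-07, 3.78e-10 and 2.32e-09). The 2 h call was lost without baseline replicate 1, 2 h replicate 1 or 2 h replicate 3 (up to 0.0883). No other gene of the 118 except Slc28a2 rose at all of 2, 4, 10 and 24 h.

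Of 8 sugar carriers 4 were called at some time, against 30.6% of the brighter genes. Slc37a2, a sugar phosphate exchanger of the endoplasmic reticulum, fell by 0.31 ± 0.07 at both 10 and 24 h (limma adjusted p = 0.0053 and 0.00609), from 9.69, 9.58 and 9.41 at baseline to 9.20, 9.35 and 9.21 at 24 h. Slc37a4, the glucose 6-phosphate carrier of the same membrane, was higher by 0.46, 0.41 and 0.44 at 4, 10 and 24 h, each with an SE of 0.14 (limma adjusted p = 0.0393, 0.0466 and 0.0367). Its baseline arrays read 6.43, 5.80 and 6.21, and the calls were lost without any of 4, 12 and 5 arrays in turn (up to 0.282, 0.303 and 0.256). The intracellular glucose carrier Slc2a8 (0.30 ± 0.10 at 10 h, limma adjusted p = 0.0366) and Slc45a4 (0.26 ± 0.08 at 24 h, limma adjusted p = 0.0296) were each called at a single time, with the calls lost without any of 4 and 5 arrays (up to 0.194 and 0.0942). Slc2a3, Slc2a6, Slc2a9 and Slc50a1 were not called, with changes from -0.22 to 0.25.

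Among 6 carriers of carboxylates and organic ions, 4 were called at some time, against 30.6% of the brighter genes. The lactate and pyruvate carrier Slc16a1 read 8.64, 8.58 and 8.56 at baseline and 8.36, 8.19 and 8.14 at 10 h. It fell by 0.25, 0.37 and 0.26 at 4, 10 and 24 h, each with an SE of 0.08 (limma adjusted p = 0.0465, 0.00127 and 0.0231), and the calls at 4 and 24 h were lost without any of 11 and 4 arrays (up to 0.146 and 0.113). Slc16a6, of the same family, was lower at 4 h alone (-0.36 ± 0.10, limma adjusted p = 0.018), lost without any of 4 arrays (up to 0.114).

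Slc17a5, which exports sialic acid from lysosomes, read 9.08, 9.08 and 9.04 at baseline, 9.57, 9.22 and 9.28 at 10 h, and 9.34, 9.37 and 9.33 at 24 h. It rose by 0.29 ± 0.07 and 0.28 ± 0.07 (limma adjusted p = 0.00371 and 0.00552), with no overlap. The ergothioneine importer Slc22a4, the member nearest the level of 6, was lower at 24 h (-0.50 ± 0.15, limma adjusted p = 0.0283), a call lost without baseline replicate 1, 24 h replicate 1 or 24 h replicate 3 (up to 0.16). The carnitine importer Slc22a5 and Slc16a7 were not called.

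The class of nucleotide sugars held the Slc35 family without Slc35b1, which was counted with the nucleosides. The family includes carriers that feed sugars to the glycosylation enzymes of the Golgi and endoplasmic reticulum. In this class 4 of 16 genes were called at some time, against 20.5% of all tested genes and 30.6% of the brighter ones. Slc35e1 rose by 0.26 ± 0.07 at 10 h and 0.34 ± 0.07 at 24 h (limma adjusted p = 0.0194 and 0.00184), and the 10 h call was lost without baseline replicate 1, 10 h replicate 1 or 10 h replicate 3 (up to 0.0853). Slc35c2 was higher by 0.49 ± 0.14 at 4 h and 0.46 ± 0.14 at 24 h (limma adjusted p = 0.0304 and 0.0291), each lost without any of 4 arrays (up to 0.134 and 0.115). Slc35f5 was higher at 4 h alone (0.19 ± 0.05, limma adjusted p = 0.0312, up to 0.16 without any of 4 arrays). Slc35f6 fell early, from 8.14, 8.26 and 7.88 at baseline to 7.84, 7.70 and 7.63 at 2 h and 7.65, 7.71 and 7.51 at 4 h. It fell by 0.37, 0.48 and 0.26 at 2, 4 and 10 h, each with an SE of 0.09 (limma adjusted p = 0.016, 0.000545 and 0.0474), and the 2 h and 10 h calls were lost without any of 4 and 13 arrays (up to 0.166 and 0.253). The other 12 had changes from -0.28 to 0.29 and no call.

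Slc20a1, a sodium-coupled importer of phosphate, was the only carrier of the 118 called in both directions. It read 10.33, 10.29 and 10.37 at baseline, 10.66, 10.63 and 10.56 at 2 h, 10.55, 10.53 and 10.54 at 4 h, 10.32, 10.21 and 10.05 at 10 h, and 10.18, 10.04 and 10.15 at 24 h. It was higher by 0.28 ± 0.06 at 2 h and 0.21 ± 0.06 at 4 h and fell by 0.21 ± 0.06 from baseline at 24 h (limma adjusted p = 0.0032, 0.0212 and 0.0136), without overlap. Between 4 and 10 h it fell by 0.35 ± 0.06 (limma adjusted p = 0.000364). The 4 h call was lost without any of 5 arrays and the 24 h call without baseline replicate 3 or 24 h replicate 2 (up to 0.0911 and 0.0894). Slc20a2, Slc26a6 and Slc26a11, the other carriers of phosphate or sulfate, were not called. Neither were the 4 carriers of lipids, bile acids and acetyl-CoA (Slc27a1, Slc10a3, Slc10a7 and Slc33a1), with changes from -0.23 to 0.06.

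**Figure D5:**
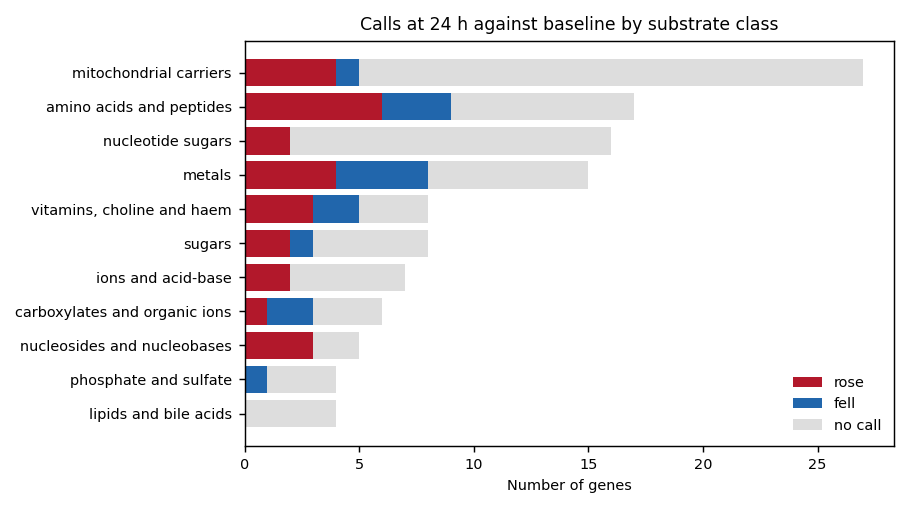
Number of carriers (horizontal axis) that rose, fell or were not called at 24 h against baseline (limma adjusted p below 0.05) in each of 11 substrate classes; the scaffold Slc9a3r1 is not drawn. Amino acid and peptide carriers gave 6 rises and 3 falls among 17, metals 4 and 4 among 15, and the mitochondrial class (family Slc25) 4 and 1 among 27.

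Most movement between neighbouring times fell between 4 and 10 h. Then 10 carriers rose and 5 fell, against 4.18% of all tested genes, and the count of 15 was 8 without 4 h replicate 1. With the replicate number as a block, 13 rose and 12 fell between these times. For the steps the share of the brighter genes was not counted. Against baseline it was above that of all tested genes, at 12.1% against 7.52% at 4 h and 22.1% against 14.4% at 10 h. From 1 to 2 h, 1 carrier rose, against 1.12% of all tested genes. From 2 to 4 h, 3 rose and 1 fell, against 1.9%. From 10 to 24 h, 4 rose and 3 fell, against 2.16%. The last count was 4 without 10 h replicate 1 or 24 h replicate 2, and 3 without 24 h replicate 1. From 2 to 4 h, leaving out any array of either time left 1 or 2 calls. From 1 to 2 h the single call was of Slc28a2. The count was 0 without 1 h replicate 1, 1 h replicate 3 or 2 h replicate 1. It was 2 or 3 without 10 h replicate 1, 10 h replicate 3 or 2 h replicate 2. Without 2 h replicate 2 the count was 3, although the call of Slc28a2 was lost. The comparisons at 4 and 24 h share their baseline arrays; 10 carriers rose and 6 fell at both, 4 rose and 3 fell at 4 h without a call at 24 h.

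Some members are neighbours on a chromosome. Besides Slc31a2 and Slc31a1, Slc46a3 and Slc7a1 lie on chromosome 5 with Mtus2 between them, and the first rose while the second was called lower at 10 h. Slc22a5 and Slc22a4 lie on chromosome 11, Slc35b2 and Slc29a1 on chromosome 17, and Slc25a15 and Slc20a2 on chromosome 8. In each of these pairs a single member was called. Slc38a1 and Slc38a2 adjoin on chromosome 15 and neither was called.

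Pumps and partners of the carriers were followed as separate lists. Of 35 ABC transporters tested, 5 rose and 6 fell at 24 h, when 12.7% of all tested genes and 19.1% of the brighter ones were called. Their median change was 0.06, against 0.01 over all tested genes. Abca9 (0.91 ± 0.17) and Abcg3 (0.99 ± 0.23) were higher at 24 h, and the phospholipid floppase Abcb4 was lower (-0.74 ± 0.09), with limma adjusted p of 0.000595, 0.00358 and 2.35e-06. The means of Abca9 and Abcg3, 4.79 and 5.72, were below the level of 6 set for the carriers. Of 14 subunits of the vacuolar proton pump, which acidifies lysosomes, none rose at any time, and 2, 5 and 3 fell at 4, 10 and 24 h. Among all tested genes, 3.03%, 6.16% and 5.34% fell at these times. Falls among the brighter genes were not counted apart from rises. Atp6v0a1 fell by 0.57 ± 0.08 at 24 h (limma adjusted p = 7.61e-06). Of 25 P-type ATPases, 2, 5 and 6 rose and 0, 0 and 1 fell at the same times. The share called then was 7.52%, 14.4% and 12.7% of all tested genes and 12.1%, 22.1% and 19.1% of the brighter ones. The fall at 24 h was of the dim Atp2b2 (mean 3.28), kept in 4 of 18 fits with a single array left out. Of the 10 h rises, those of Atp13a2 and Atp2a2 were kept in 6 and 11 of the 18. Those of Atp1b3, Atp7a and Atp8b4 were kept in all 18. Besides Atp7a, described with the copper carriers, the lipid flippase Atp8b4 was higher by 0.59 at 24 h, although the call was not made with its more variable probe set.

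Of 20 tested partners and regulators of carriers, 2 rose at 1 h and 4 at 2 h, when 0.387% and 2.15% of all tested genes were called. Slc9a3r1 belongs to this list too. Sgk1, a kinase that keeps carriers at the cell surface, was higher by 0.88 ± 0.05 at 1 h (limma adjusted p = 6.53e-11). Arrdc3, an arrestin that directs membrane proteins to degradation, was higher by 0.67 ± 0.12 at 1 h (limma adjusted p = 0.00543) and by 0.57 without 1 h replicate 2, with a limma adjusted p of 0.0818. Wnk1, a kinase that controls chloride carriers, was higher by 0.84 ± 0.06 at 10 h (limma adjusted p = 5.98e-11). Emb, which chaperones lactate carriers to the membrane, was higher by 0.37 ± 0.04 at 24 h (limma adjusted p = 1.16e-06). Sgk1 and Arrdc3 were called at 1 h, when no carrier was.

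Probe sets of a gene did not always move together. Of the 58 called carriers, 28 had a single probe set and 20 had another with a mean of at least 6. In 17 of those 20, all such probe sets had the same sign at the gene's largest change. With the mean of a gene's probe sets in place of the brightest, no reported call against baseline was made for Slc6a6, Slc7a1, Slc16a1, Slc19a2, Slc20a1, Slc23a2, Slc25a10, Slc25a15, Slc25a51, Slc35c2, Slc38a6, Slc38a10, Slc39a8, Slc44a1 or Slc45a4. Of these, Slc16a1, Slc19a2, Slc20a1, Slc23a2, Slc25a15, Slc38a6, Slc39a8, Slc44a1 and Slc45a4 had no other probe set with a mean of at least 6. For them the mean took in only dimmer probe sets. Use of the mean also ended the 4 h calls of Slc25a12, Slc31a2, Slc39a10 and Slc43a2, those of Slc48a1 at 4 and 10 h and that of Slc35f6 at 10 h. The most variable probe set ended, among others, the calls of Slc25a30 at 10 and 24 h, of Slc39a6 at 4 h, of Slc48a1 at all 3 times and of Slc9a3r1 at 2 h.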

How the data were processed

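Total RNA of 18 samples was measured on Affymetrix arrays. The submitters' processing notes name RMA and affy as the tools the authors used, and the deposited values are linear intensities (5.37 to 15224), with no depth to report, so that the number of arrays limits the precision. Here log2 was taken. Of 45141 probe sets, 28898 had a single gene symbol in the platform annotation, 551 had several and 15692 had none (104 of them controls). 28689 of the single symbols were found in RefSeq and 0 changed. On baseline replicate 1, 211 probe sets held evenly spaced values (steps equal within 1e-06 log2) and were left out. Each of 17020 genes was represented by its brightest probe set. A gene was tested if it reached the 40th percentile of its array on at least 3 arrays, which left 13190. limma 3.58.1 (R 4.3.3) was fitted to all 6 groups with an intensity trend, adjusted by Benjamini-Hochberg within each comparison, with a threshold of 0.05. The fit was tested on simulated data. The members, substrate classes and lists were chosen with earlier results of these data known, and none of them is independent support. By rule the text names, among members, the 5 largest non-overlapping rises and falls called at each time, the 2 largest in each step, the 4 largest called in each class (or the brightest where none was), the 8 brightest and the 3 on either side of the level of 6, and up to 4 called genes of each list. The other called members and the uncalled ones were named after their values were seen. Promoters are RefSeq GRCm38.p6, of which the 250 bases before the start were used. Alternatives were the probe set (mean, or largest variance), the filter, the trend, the scaling, the stepped values, the fit of groups alone, the adjustment over times together, the replicate number as a block, the member level (5 or 7) and each array left out.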

Additional observations from a re-analysis of the deposited data

Results flagged for a closer look

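A difference between neighbouring times, tested by limma within the same fit, passed an adjusted p of 0.05 for the carriers named here, given as log2 differences of the later from the earlier time. From 1 to 2 h it was Slc28a2 (0.42). From 2 to 4 h they were Slc28a2 (0.41), Slc49a4 (0.42), Slc9a3r1 (0.21) and Slc39a10 (-0.33). Each of these calls up to 4 h was lost without 1 or more single arrays (limma adjusted p up to 0.236). From 4 to 10 h the differences above 0 were those of Slc43a2 (0.51), Slc24a3 (0.58), Slc46a3 (0.47), Slc43a3 (0.39), Slc31a1 (0.38), Slc17a5 (0.38), Slc8b1 (0.34), Slc31a2 (0.33), Slc44a2 (0.27) and Slc9a3r1 (0.25). Those below 0 were of Slc15a3 (-0.73), Slc39a10 (-0.64), Slc39a6 (-0.37), Slc20a1 (-0.35) and Slc39a7 (-0.21). In this step the calls of Slc24a3, Slc43a3, Slc8b1, Slc31a2, Slc44a2, Slc9a3r1 and Slc39a7 were lost without 1 or more single arrays. That of Slc39a7 was kept in 5 of 18 such fits (limma adjusted p up to 0.184). From 10 to 24 h, Slc7a8 (0.52), Slc9a9 (0.49), Slc15a3 (0.38) and Slc39a8 (0.34) rose, and Slc24a3 (-0.80), Slc30a4 (-0.45) and Slc25a12 (-0.26) fell. Of these the calls of Slc7a8, Slc15a3, Slc39a8, Slc30a4 and Slc25a12 were lost without 1 or more single arrays (limma adjusted p up to 0.195). Slc15a3 thus moved in opposite directions in the last 2 steps, as did Slc24a3. The later call of Slc15a3 and the earlier call of Slc24a3 were among those lost.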

How the results depend on the processing

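Of 107 calls against baseline, 43 were made under every alternative run and 46 were lost on leaving out 1 or more single arrays. Among 128 counts refitted under the other alternatives, 104 stayed within 1.5 times of the reported count, as did 159 of 180 with an array left out. With the mean of all probe sets, 15 carriers were called at 4 h and 4 from 10 to 24 h. With the probe set of largest variance, 12 were called at 4 h, 24 at 10 h and 2 from 2 to 4 h. Signs then turned for Slc19a2 (-0.0512) and Slc6a6 (0.0938) at 4 h, Slc25a51 (-0.0062) and Slc38a10 (0.0393) at 10 h, Slc23a2 (0.0814), Slc25a15 (-0.0011), Slc6a6 (0.0886) and Atp2a2 (-0.1872) at 24 h, and Slc25a12 from 10 to 24 h (0.0525). The probe set then used was dim for Slc19a2, Slc23a2, Slc25a12, Slc25a15, Slc25a51 and Slc38a10, with means from 3.94 to 4.91. For Slc6a6 its mean was 6.13. With no intensity trend, 14 were called at 4 h, and 0, 1, 9 and 1 in the successive steps. With the groups compared alone, 2 were called at 2 h, 0 from 1 to 2 h, 2 from 2 to 4 h and 4 from 10 to 24 h. Normalizing by quantiles again, centring arrays on the median or adjusting over the times together each gave 2 from 1 to 2 h. The last also gave 1 call at 1 h and 8 at 2 h. The cause of these differences was not tested.

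Leaving out single arrays gave ranges of 2 to 5 calls at 2 h, 13 to 26 at 4 h, 29 to 38 at 10 h and 30 to 42 at 24 h. The steps gave 0 to 3, 1 to 5, 8 to 16 and 3 to 9, and the F test 40 to 47. The labels do not say what the replicate number stands for. Deviations of arrays with the same number correlated at 0.0236 to 0.290, over 0.1 in 35 of 45 pairs, and each of the 18 arrays correlated best with its own number. With the replicate block, 10 carriers were called at 2 h, and 4, 8, 25 and 11 in the successive steps. In these steps 2, 5, 13 and 4 rose and 2, 3, 12 and 7 fell. Of the 134 calls of all comparisons, the block lost 0, the fit with no intensity trend 46, the mean of all probe sets 41 and the groups compared alone 30. The probe set of largest variance lost 40 and turned 8 of 131.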
